A study of Mus musculus with 6 samples.

Results

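The extracellular matrix genes of mouse germline stem cell preparations were compared between female and male cells: the collagens, the laminins, the fibulins, the matrix metalloproteinases, their tissue inhibitors, and fibronectin, Sparc, the nidogens, perlecan, agrin, dystroglycan, lumican, biglycan, tenascin C and periostin. Members were set by a rule on gene symbols that uses no expression value, but it was chosen with earlier results of these data known. The rule named 90 genes on the array, of which 58 had a probe that passed the detection filter and were tested, out of 10628 genes tested in all. The other 32 had no kept probe and were not analysed further, 24 of them with no probe detected on any array. These were the collagen genes Col2a1, Col4a6, Col5a2, Col6a4, Col6a5, Col6a6, Col8a1, Col9a1, Col10a1, Col11a1, Col11a2, Col13a1, Col19a1, Col25a1, Col27a1 and Col28a1, the laminin genes Lama4 and Lamb1, the fibulin genes Fbln5 and Fbln7, Mmp1b, Mmp3, Mmp7, Mmp8, Mmp10, Mmp12, Mmp19, Mmp20, Mmp21, Mmp25, Timp4 and Postn. Total RNA of each sample was hybridised to an Illumina Mouse WG-6 v2.0 array, 6 arrays in all. The first group was 3 arrays of female germline stem cells (FGSC), described as mitotically active germ cells of the postnatal ovary, from ovaries of CD1 mice aged 3 days. The second group was 3 arrays of spermatogonial stem cells (SSC), the cells that maintain sperm production, which the labels spell spermatogonian, from testes of CD1 mice aged 6 days. The sources used here give no genotype, treatment, enrichment or culture method for either group. The groups differ at once in organ, sex and age, whose effects cannot be told apart.

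The extracellular matrix is the protein scaffold that cells secrete and rest on. Fibrillar collagens form the tensile fibres of connective tissue, while type IV collagen and laminins each build a network that nidogens and perlecan tie together into a basement membrane. In the testis a basement membrane lies between the seminiferous epithelium and the peritubular cells, and spermatogonial stem cells sit on it. In the ovary a basement membrane surrounds each follicle. Matrix metalloproteinases cut these proteins, and the tissue inhibitors of metalloproteinases (Timp proteins) block the cutting.

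The arrays detected between 16198 and 17231 of 45281 probes in FGSC and between 18574 and 18823 in SSC. FGSC replicate 3 stood apart: 149 genes deviated by 2 log2 units or more from the average of replicates 1 and 2, against 22 or fewer genes on every other array. No matrix gene was among those 149. At a distance of 1 log2 unit, FGSC replicate 3 stood apart in Hspg2, SSC replicate 1 in Timp3, and SSC replicate 3 in Col1a2, Col3a1 and Timp3. Results that turn on 1 array are given with and without it. Values below are normalized log2 signals in the order of replicates 1 to 3, and the lowest signal detected on an array lay between 4.82 and 4.89. Each difference subtracts the SSC mean from the FGSC mean in log2 units and carries its standard error (SE) from limma, and a gene was called at a Benjamini-Hochberg adjusted p under 0.05 over all 10628 genes. A gene is read from its brightest kept probe, and levels of different genes were not compared. The labels do not state whether replicates came from separate animals or cultures, so the p-values reflect only the variation among these 3 arrays a group, part or all of which may be technical.

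Of the tested matrix genes, most were called lower in FGSC in the main fit. Of the 58 members, 42 were called (72.4%), against 62.4% of all genes tested. Among members 10 rose (17.2%) and 32 fell (55.2%), while over all genes 30.9% rose and 31.5% fell. Every count by family, gene list or marker list below has those shares over all genes as its background. At a size of at least 1 log2 unit, 2 members rose (3.45%) and 23 fell (39.7%), against 12.6% and 14.0% of all genes. The median difference of the members was -0.66, beside a median of -0.00 over all genes. The size of that median depended on the filter: it was -0.20 over the 30 members detected at p under 0.01 on all 6 arrays, beside 0.10 over all such genes, and -0.04 over all 90 members with no detection filter, beside 0.01. Under those settings 13 of 30 and 30 of 90 members were called lower, which is not most of them, and 8 and 9 were called higher. Over all genes, 1931 of 6896 and 3297 of 19053 were called lower there, and 2460 and 3223 were called higher. The groups did not overlap in 44 members (75.9%), against 70.9% of all genes. In these bulk samples, fewer cells of a type and less RNA per cell cannot be told apart.

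**Figure D1:**
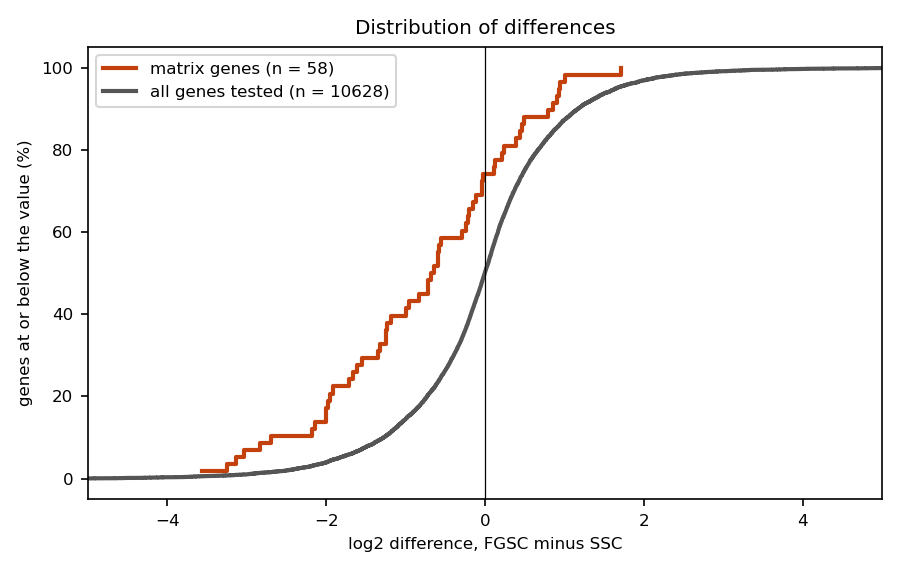
Cumulative distribution of the log2 difference, FGSC minus SSC (x axis), as the percentage of genes at or below each value (y axis), for the 58 matrix genes and for all 10628 genes tested. The matrix gene curve lies left of the other over most of its range, with medians of -0.66 and -0.00.

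The detection filter fixes the direction of a gene that was detected in a single group. Of the 58 members, 8 were detected on no FGSC array and 3 on no SSC array. With both kinds set aside, along with every other gene that missed detection on any array, 37 members remained, of which 6 rose and 20 fell, with a median of -0.60. Over the 7799 genes detected on all 6 arrays, 2683 rose and 2282 fell, with a median of 0.07.

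**Figure D2:**
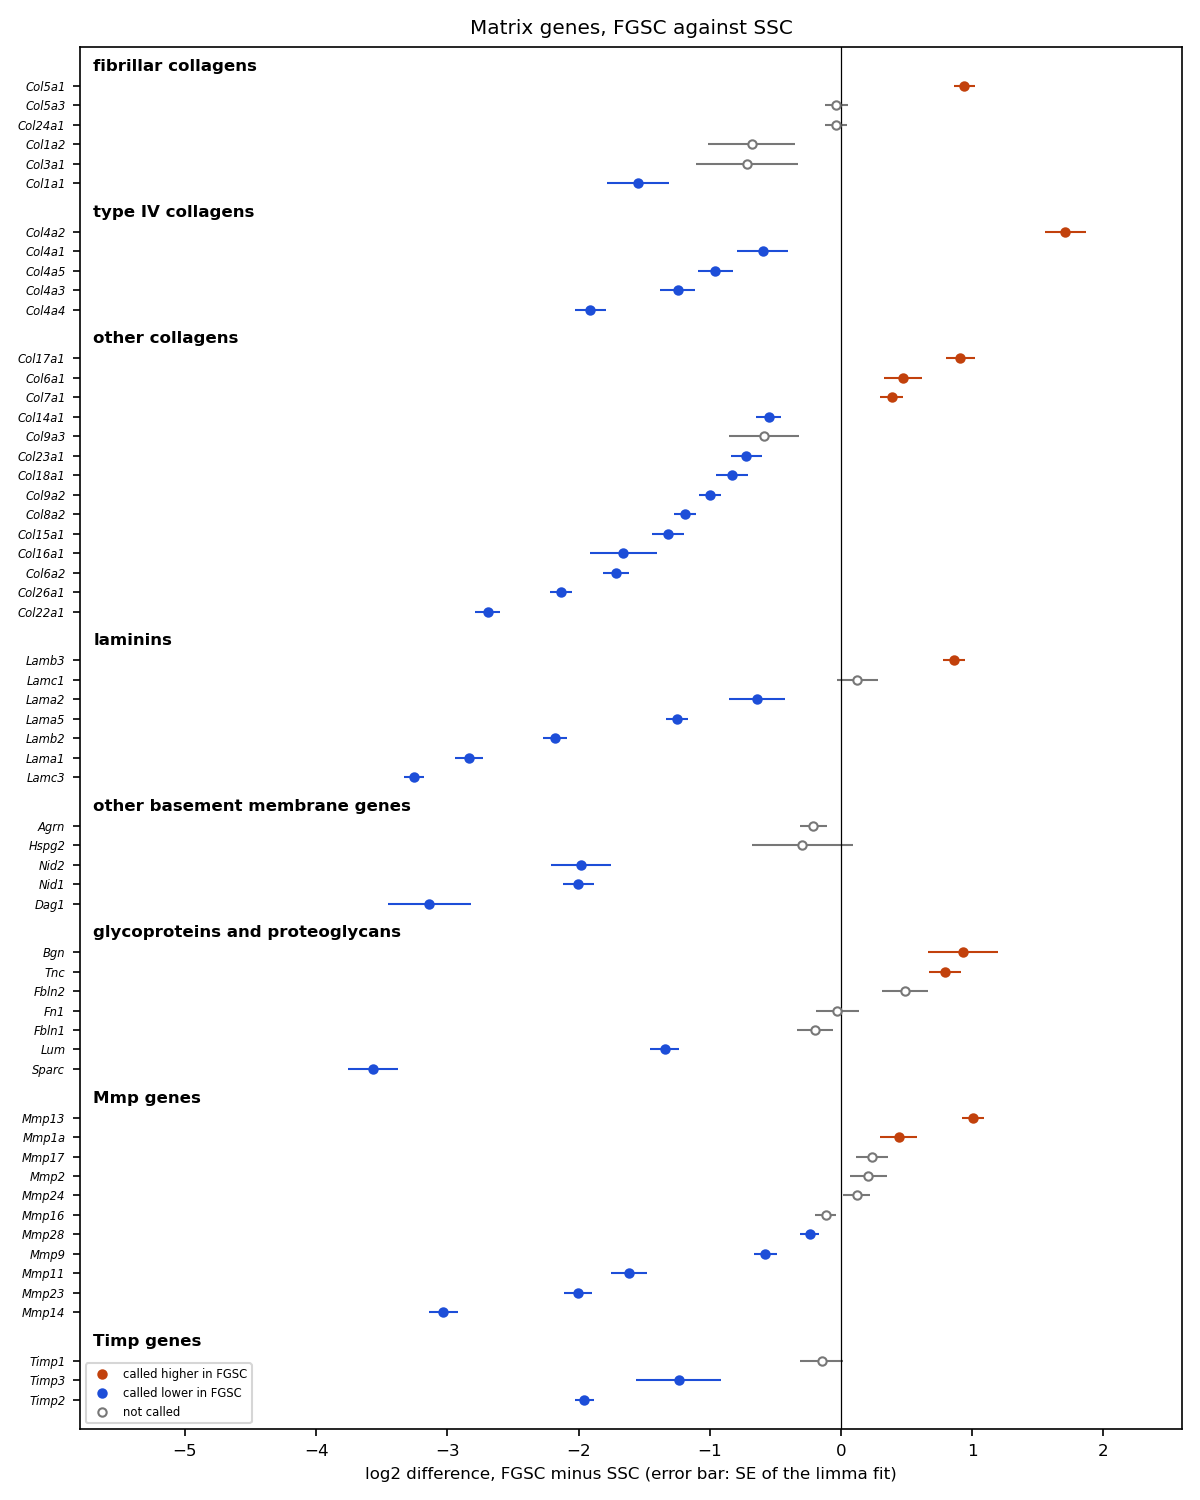
Log2 difference, FGSC minus SSC (x axis), of each of the 58 matrix genes, grouped by family. Points are the fitted differences and bars their SE, filled where the gene was called; they run from -3.57 for Sparc to 1.71 for Col4a2.

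The fibrillar collagens were split, with 1 of 6 tested members higher in FGSC, 1 lower and 4 not called (median -0.36). Col1a1, the major chain of type I collagen in bone, skin and tendon, had values of 5.17, 5.46 and 4.92 in FGSC, against 6.33, 6.69 and 7.17 in SSC. Every FGSC array lay below every SSC array, and Col1a1 fell by 1.55 ± 0.24 (adjusted p = 0.00134). Col5a1, a chain of the type V collagen that starts type I fibres, had 6.12, 6.15 and 6.27 in FGSC, against 5.28, 5.19 and 5.26 in SSC. This gene ran the opposite way, with all FGSC arrays above all SSC arrays and a difference of 0.94 ± 0.08 (adjusted p = 8.23e-05).

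Col1a2, the second chain of type I collagen, was not called. It had 4.78, 4.82 and 5.01 in FGSC, against 5.18, 5.10 and 6.36 in SSC, a difference of -0.68 ± 0.33. SSC replicate 3 was far above the other SSC arrays, and without it the difference was -0.27 and not called; with both arrays numbered 3 left out it was -0.34 and called. Col3a1, which forms the fine fibres of soft organs, showed the same array standing high, with 4.80, 4.90 and 4.75 in FGSC and 4.97, 5.12 and 6.50 in SSC. Its difference of -0.71 ± 0.39 was not called either, and was -0.23 without SSC replicate 3, while its second kept probe was called lower, with a difference of -0.24. Col24a1 and Col5a3 differed by -0.04 each and were not called.

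The 5 tested genes of type IV collagen, the sheet-forming collagen of basement membranes, were all called, 1 higher in FGSC and 4 lower (median -0.96). That median depended on the filter. Over the 2 genes detected on all 6 arrays, Col4a1 and Col4a2, 1 was higher and 1 lower, with a median of 0.56. Col4a1 and Col4a2, whose chains join in the widespread form of the protein, lie head to head on chromosome 8 (GRCm38.p6) and are transcribed away from each other. Their promoter windows, each of 250 bases before and 50 after the RefSeq start, share 78 bases at chr8:11312777-11312854. The windows are shown because the members moved in opposite directions; capitals mark the shared stretch. Col4a2 is read on the plus strand at chr8:11312555-11312854 and Col4a1 on the minus strand at chr8:11312777-11313076, so the capitals of one are the reverse complement of the other.

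Col4a2: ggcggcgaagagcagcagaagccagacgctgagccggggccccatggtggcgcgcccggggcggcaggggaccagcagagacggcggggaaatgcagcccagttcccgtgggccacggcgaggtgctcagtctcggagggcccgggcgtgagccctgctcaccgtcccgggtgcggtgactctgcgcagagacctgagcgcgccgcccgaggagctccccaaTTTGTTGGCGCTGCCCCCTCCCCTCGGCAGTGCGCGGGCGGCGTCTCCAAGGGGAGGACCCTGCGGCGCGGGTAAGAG

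Col4a1: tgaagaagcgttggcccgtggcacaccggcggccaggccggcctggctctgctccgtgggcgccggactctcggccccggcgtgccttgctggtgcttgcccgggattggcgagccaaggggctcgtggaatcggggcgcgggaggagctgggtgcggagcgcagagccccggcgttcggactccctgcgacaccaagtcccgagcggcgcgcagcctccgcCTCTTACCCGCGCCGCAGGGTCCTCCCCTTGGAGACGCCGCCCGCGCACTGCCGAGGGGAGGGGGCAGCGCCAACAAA

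The probes of these neighbours differed in opposite directions. Col4a2 had 7.27, 7.34 and 7.77 in FGSC, against 5.75, 5.91 and 5.58 in SSC. The groups were far apart, and Col4a2 rose by 1.71 ± 0.16 (adjusted p = 1.26e-04), the largest rise of the 58 members. Col4a1 had 6.32, 6.40 and 6.79 in FGSC, against 7.33, 7.24 and 6.73 in SSC. Its groups overlapped, since FGSC replicate 3 lay above SSC replicate 3, and the difference was -0.60 ± 0.20 (adjusted p = 0.0354). The Col4a1 call was lost without FGSC replicate 1 (-0.51), FGSC replicate 2 (-0.55), SSC replicate 1 (-0.48) or SSC replicate 2 (-0.53).

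The other chains of type IV collagen were lower in FGSC. Col4a3 and Col4a4 encode chains best known from the filter of the kidney glomerulus, and neither was detected on any FGSC array. Col4a4 had 4.72, 4.78 and 4.73 in FGSC, against 6.79, 6.77 and 6.41 in SSC, and was at least 3.44-fold lower in FGSC (means 4.75 and 6.65, adjusted p = 2.01e-05). Col4a3 had 4.67, 4.66 and 4.76 in FGSC, against 6.20, 5.91 and 5.70 in SSC, and was at least 2.10-fold lower (means 4.70 and 5.94, adjusted p = 2.56e-04). Col4a5, the X-linked chain that joins with both, had 4.93, 4.86 and 4.87 in FGSC, against 5.59, 5.84 and 6.11 in SSC. It fell by 0.96 ± 0.14 (adjusted p = 9.78e-04). Col4a5 was detected on 1 FGSC array. In all 3 genes the FGSC arrays sat at or near the detection limit, and the groups did not overlap.

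Of the 14 other collagens tested, 3 rose, 10 fell and 1 was not called (median -0.91). Col22a1, a collagen of tissue junctions such as those between muscle and tendon, had 4.83, 5.03 and 4.84 in FGSC, against 7.65, 7.64 and 7.49 in SSC. It was detected on 1 FGSC array and on all SSC arrays, and fell by 2.69 ± 0.09 (adjusted p = 1.95e-06). Col26a1, a collagen described in testis and ovary, had 4.88, 4.76 and 4.75 in FGSC, against 6.99, 6.97 and 6.83 in SSC, and fell by 2.14 ± 0.08 (adjusted p = 3.25e-06). It too was detected on a single FGSC array.

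Type VI collagen, which forms beaded filaments next to basement membranes, was split between its neighbouring genes. Col6a2 had 5.40, 5.49 and 5.38 in FGSC, against 7.20, 7.24 and 6.97 in SSC, and fell by 1.72 ± 0.10 (adjusted p = 1.45e-05). Col6a1 differed by 0.47 ± 0.14 the other way (adjusted p = 0.0264), and its second kept probe by 0.85. The call of Col6a1 was lost without FGSC replicate 2 (0.39), FGSC replicate 3 (0.43), SSC replicate 1 (0.42) or SSC replicate 3 (0.43).

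Col16a1, a collagen that links fibrils to other matrix, had 6.22, 5.84 and 5.91 in FGSC, against 7.23, 7.52 and 8.20 in SSC, and fell by 1.66 ± 0.25 (adjusted p = 0.00135). Col15a1, a collagen of the zone around basement membranes, had 4.92, 5.03 and 5.14 in FGSC, against 6.45, 6.47 and 6.12 in SSC, and fell by 1.32 ± 0.12 (adjusted p = 1.23e-04). Col8a2, a short-chain collagen known from the cornea, had 4.78 on each FGSC array, against 5.91, 5.91 and 6.10 in SSC. No FGSC array detected Col8a2, which was at least 2.14-fold lower in FGSC (means 4.78 and 5.97, adjusted p = 3.58e-05). The remaining falls were those of Col9a2 (at least 1.77-fold, means 4.70 in FGSC and 5.69 in SSC, adjusted p = 7.13e-05) and Col14a1 (at least 1.38-fold, means 4.78 and 5.33, adjusted p = 0.00204), both undetected in FGSC, with the second kept Col14a1 probe at -0.08 and not called, and of Col18a1 (-0.83) and Col23a1 (-0.72). Col18a1, the source of the fragment endostatin, was called lower by all 3 of its kept probes, with differences from -2.17 to -0.48.

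The rises among these collagens were in Col17a1 and Col7a1, both known from the attachment of skin epithelium to its basement membrane, and in Col6a1. Col17a1, a transmembrane collagen of hemidesmosomes, differed by 0.91 ± 0.11 (adjusted p = 4.61e-04) and was called higher by all 3 of its kept probes. Col7a1, the anchoring fibril collagen, differed by 0.39 ± 0.09 (adjusted p = 0.00808). Col9a3, a cartilage collagen chain, was not called, with 4.87, 5.14 and 4.84 in FGSC and 5.14, 5.31 and 6.16 in SSC. The difference was -0.59 ± 0.27, and -0.28 without SSC replicate 3.

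Laminins are trimers of an alpha, a beta and a gamma chain, and 5 of 7 tested chains fell, 1 rose and 1 was not called (median -1.25). Lamc3, the gamma 3 chain, had 4.83, 4.84 and 4.72 in FGSC, against 8.07, 7.98 and 8.09 in SSC. It was detected on no FGSC array and was at least 9.05-fold lower there (means 4.79 and 8.05, adjusted p = 6.90e-07). Its second kept probe was also called lower, with a difference of -1.27. Lama1, the alpha 1 chain of the earliest embryonic laminin, had 6.25, 6.55 and 6.52 in FGSC, against 9.33, 9.33 and 9.16 in SSC, and fell by 2.84 ± 0.11 (adjusted p = 3.02e-06). Lamb2, the beta 2 chain known from synapses and the kidney filter, had 5.80, 6.02 and 6.05 in FGSC, against 8.16, 8.14 and 8.11 in SSC, and fell by 2.18 ± 0.09 (adjusted p = 4.32e-06). In all 3 genes the arrays of a group lay close together and the groups were more than 2 log2 units apart.

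Lama5, an alpha chain of many adult basement membranes, had 5.16, 4.94 and 5.11 in FGSC, against 6.31, 6.29 and 6.36 in SSC, and fell by 1.25 ± 0.09 (adjusted p = 3.27e-05). Lama2, the alpha chain of muscle, had 6.24, 6.51 and 6.15 in FGSC, against 7.14, 6.47 and 7.20 in SSC. FGSC replicate 2 lay above SSC replicate 2, so its groups overlapped, and the difference of -0.64 ± 0.21 (adjusted p = 0.0358) lost its call without FGSC replicate 1 (-0.61), FGSC replicate 3 (-0.56), SSC replicate 1 (-0.54) or SSC replicate 3 (-0.51). Lamb3, the beta 3 chain of the epithelial laminin that anchors skin, was the exception in direction. It had 5.49, 5.73 and 5.58 in FGSC, against 4.76, 4.74 and 4.72 in SSC, where no array detected it, and was at least 1.72-fold higher in FGSC (means 5.60 and 4.74, adjusted p = 1.77e-04). Lamc1, the most widespread gamma chain, was not called, with 8.07, 8.11 and 8.61 in FGSC and 8.04, 8.19 and 8.19 in SSC (difference 0.13 ± 0.16).

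**Figure D3:**
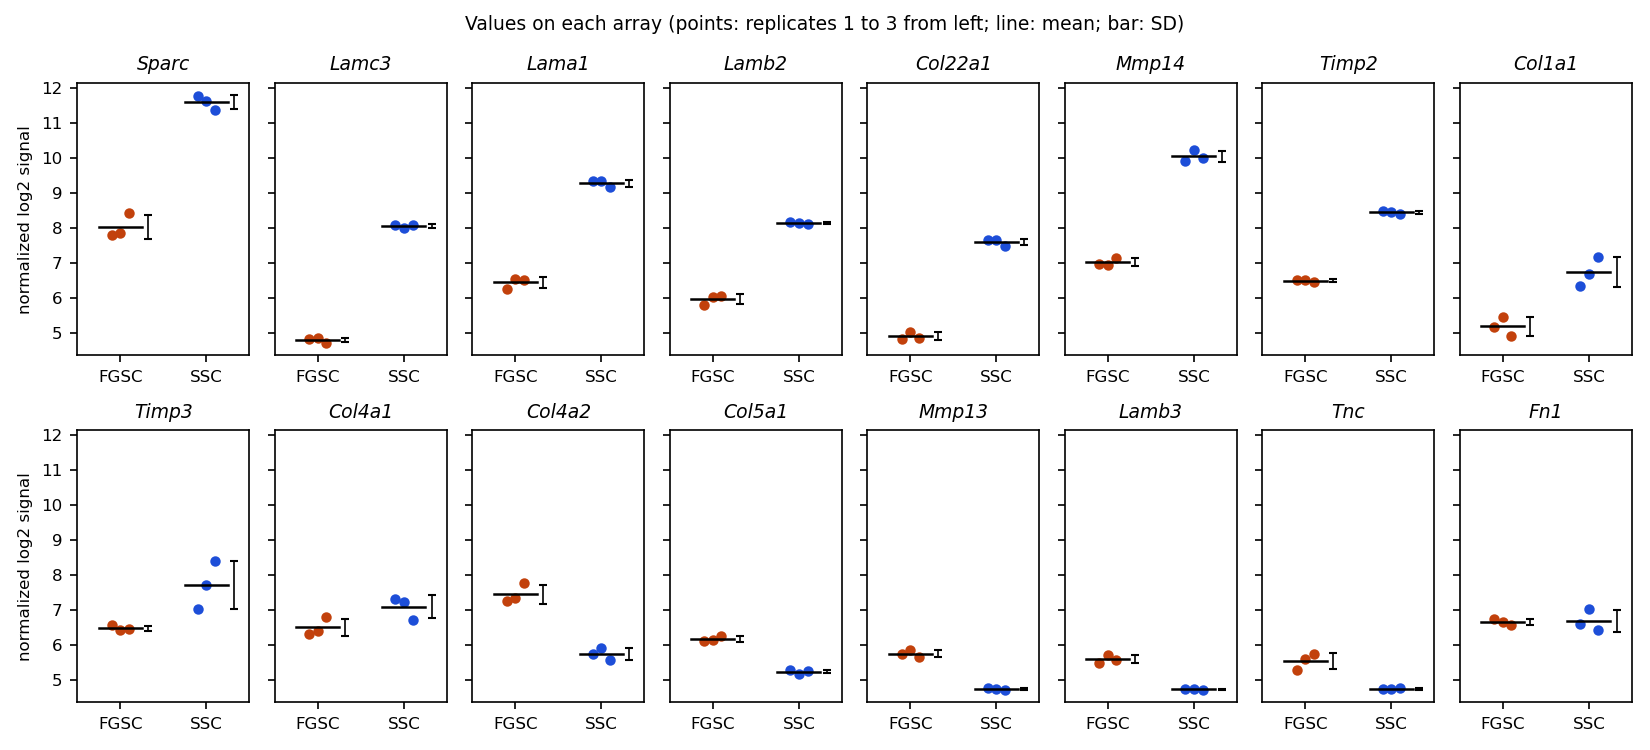
Normalized log2 signal (y axis) of 16 matrix genes on the 3 FGSC and 3 SSC arrays, with the mean as a line and the SD as a bar. Sparc, Lamc3, Lama1 and Mmp14 are lower on every FGSC array, Col4a2, Col5a1, Mmp13, Lamb3 and Tnc are higher on every FGSC array, and Fn1 overlaps.

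Of the other 5 basement membrane genes, 3 fell by their brightest probe, among them Dag1, whose probes went opposite ways, and 2 were not called (median -1.98). With the mean of the kept probes the median was -0.92, with 3 lower and 1 higher, and over the 4 genes detected at p under 0.01 on all 6 arrays it was -0.25, with 1 lower and 1 higher. Nid1 and Nid2 encode the nidogens, which link laminin to type IV collagen. Nid1 had 5.10, 5.12 and 5.38 in FGSC, against 7.15, 7.08 and 7.37 in SSC, and fell by 2.00 ± 0.12 (adjusted p = 1.63e-05), with its second probe also called lower, with a difference of -0.81. Nid2 had 4.84, 4.99 and 4.85 in FGSC, against 7.37, 6.82 and 6.42 in SSC, and fell by 1.98 ± 0.23 (adjusted p = 3.58e-04). Nid2 was detected on 1 FGSC array, so its FGSC level lies near the detection limit. For both nidogens the FGSC arrays lay well below the SSC arrays.

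Dag1, which encodes dystroglycan, a laminin receptor, had 5.79, 5.74 and 4.94 in FGSC, against 8.23, 8.47 and 9.17 in SSC. The difference of its brightest probe was -3.14 ± 0.32 (adjusted p = 1.89e-04), but its second kept probe was called the other way, with a difference of 1.30, so the direction of Dag1 is not settled by these arrays. Hspg2, which encodes the heparan sulfate proteoglycan perlecan, was not called, with 6.39, 6.18 and 7.71 in FGSC and 6.98, 7.11 and 7.06 in SSC. Its difference was -0.29 ± 0.38 over all arrays, and -0.77 and called without FGSC replicate 3, while its second probe was called higher, by 2.35, with signal and detection p out of order on 2 arrays. Agrn, the proteoglycan agrin, was not called at 6.51, 6.43 and 6.71 in FGSC and 6.65, 6.84 and 6.80 in SSC (difference -0.21 ± 0.10), though it was called without FGSC replicate 3 (-0.29).

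**Figure D4:**
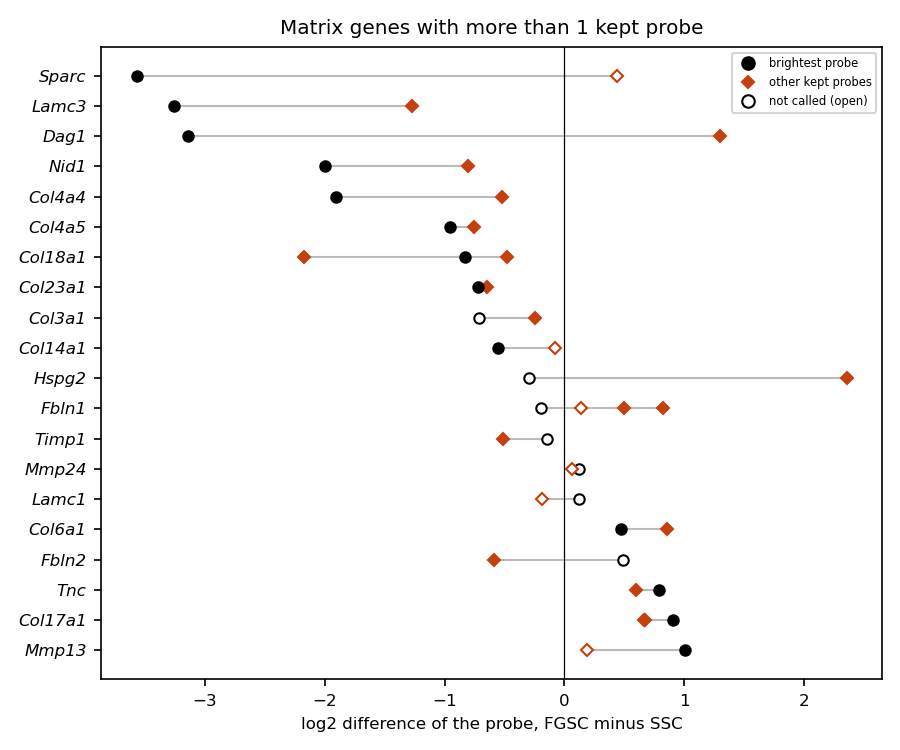
Log2 difference, FGSC minus SSC (x axis), of every kept probe of the 20 matrix genes with at least 2 kept probes; circles are the brightest probe, diamonds the others, and open symbols were not called. Dag1 is the gene whose probes were called in opposite directions, at -3.14 and 1.30.

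Among the 7 tested glycoproteins and proteoglycans, 2 rose, 2 fell and 3 were not called (median -0.03). Sparc, a collagen-binding glycoprotein made by cells that lay down basement membrane, had 7.80, 7.84 and 8.41 in FGSC, against 11.77, 11.62 and 11.38 in SSC. The groups were far apart, and Sparc fell by 3.57 ± 0.19 (adjusted p = 1.08e-05), the largest fall of the 58 members. Its second kept probe differed by 0.44 and was not called, so the fall rests on the brightest probe. Lum, the small proteoglycan lumican that spaces collagen fibrils, had 4.83, 4.82 and 4.84 in FGSC, where it was undetected, against 6.39, 6.07 and 6.06 in SSC. It was at least 2.47-fold lower in FGSC (means 4.83 and 6.17, adjusted p = 6.56e-05).

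Tnc, the adhesion-modulating glycoprotein tenascin C, had 5.28, 5.59 and 5.74 in FGSC, against 4.73, 4.74 and 4.76 in SSC. No SSC array detected Tnc, both of its probes were called higher, and it was at least 1.64-fold higher in FGSC (means 5.54 and 4.74, adjusted p = 0.00154). Bgn, the small proteoglycan biglycan, had 6.94, 7.06 and 7.35 in FGSC, against 6.23, 6.69 and 5.64 in SSC. Its groups did not overlap, and the difference of 0.93 ± 0.27 (adjusted p = 0.0210) lost its call without FGSC replicate 2 (0.96) or SSC replicate 1 (0.95), and was 0.54 and called with both arrays numbered 3 left out.

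Fn1, fibronectin, the main integrin ligand of loose matrix, was not called, with 6.75, 6.65 and 6.58 in FGSC and 6.59, 7.04 and 6.43 in SSC (difference -0.03 ± 0.16). Fbln1, the fibulin 1 gene, was not called by its brightest probe at 8.51, 8.54 and 8.14 in FGSC and 8.73, 8.46 and 8.58 in SSC (difference -0.20 ± 0.14). Of its 4 kept probes 2 were called higher, the largest by 0.82. Fbln2, fibulin 2, missed the threshold with a difference of 0.49 ± 0.18 (adjusted p = 0.0504 in limma) and was called without SSC replicate 3 (0.68), while its second probe was called lower, with a difference of -0.59.

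The metalloproteinases were divided, with 2 of 11 tested genes higher, 5 lower and 4 not called (median -0.12). Promoter windows of 3 of them are shown, those of the 2 genes that rose and of the gene that fell most. These 3 were picked after their directions and motifs were seen. Capitals mark matches on either strand to TGAGTCA, the AP-1 site, to TATAAA, the TATA box, to CCAAT and to GGGCGG, the GC box. Mmp13 and Mmp1a, both collagenases that rose, lie on chromosome 9 at chr9:7272264-7272563 and chr9:7463891-7464190, and Mmp14, which fell, at chr14:54431348-54431647, all on the plus strand of GRCm38.p6 in RefSeq.

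Mmp13: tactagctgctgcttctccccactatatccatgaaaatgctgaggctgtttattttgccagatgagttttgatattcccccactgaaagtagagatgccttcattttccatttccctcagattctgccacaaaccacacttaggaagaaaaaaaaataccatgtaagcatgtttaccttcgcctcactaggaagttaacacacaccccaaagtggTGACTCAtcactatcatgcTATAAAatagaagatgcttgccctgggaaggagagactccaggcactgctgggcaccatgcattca

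Mmp1a: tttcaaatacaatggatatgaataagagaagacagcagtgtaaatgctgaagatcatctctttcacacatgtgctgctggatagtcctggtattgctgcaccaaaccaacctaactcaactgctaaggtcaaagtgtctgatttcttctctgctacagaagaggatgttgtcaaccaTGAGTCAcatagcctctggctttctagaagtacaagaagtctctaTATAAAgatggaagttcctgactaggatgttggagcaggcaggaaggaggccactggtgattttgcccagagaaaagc

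Mmp14: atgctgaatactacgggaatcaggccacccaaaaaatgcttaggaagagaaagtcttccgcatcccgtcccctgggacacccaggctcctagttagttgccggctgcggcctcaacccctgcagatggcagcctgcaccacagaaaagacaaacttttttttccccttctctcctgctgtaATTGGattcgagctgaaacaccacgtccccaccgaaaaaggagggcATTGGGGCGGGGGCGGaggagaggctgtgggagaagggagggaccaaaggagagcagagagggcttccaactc

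Both collagenase windows hold 1 AP-1 match and 1 TATA match, and the Mmp14 window holds 2 CCAAT and 2 GC box matches. Of 32851 windows of the same length in the table, 5.2% hold TGAGTCA, 13.6% TATAAA, 37.4% CCAAT and 35.7% GGGCGG. Windows were found for 42 of the 58 members, 50 windows in all, and the shares there were 6.0% for the AP-1 site (3 windows, those of Col6a1, Mmp13 and Mmp1a), 12.0% for the TATA box, 30.0% for CCAAT and 70.0% for the GC box. A match describes the letters of a window and does not show that a factor binds there. GC box matches lay in windows of members of either direction, among them Tnc and Col5a1, which rose, and Mmp11 and Mmp23, which fell. The window of Mmp24, which was not called, held them too. No window was found for Mmp2, Mmp9, Mmp16 or Mmp17. A link between motifs and direction was not tested.

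Mmp14, the membrane-bound metalloproteinase that cuts fibrillar collagen and activates Mmp2, had 6.95, 6.94 and 7.14 in FGSC, against 9.92, 10.22 and 9.99 in SSC. The groups lay about 3 log2 units apart, and Mmp14 fell by 3.03 ± 0.11 (adjusted p = 2.47e-06). Mmp23 had 5.01, 5.02 and 5.09 in FGSC, against 6.86, 7.22 and 7.07 in SSC, and fell by 2.01 ± 0.11 (adjusted p = 1.10e-05). Mmp11, the enzyme called stromelysin 3, had 5.22, 5.05 and 5.38 in FGSC, against 6.66, 6.78 and 7.06 in SSC, and fell by 1.61 ± 0.14 (adjusted p = 8.52e-05). Mmp9, a gelatinase that cuts type IV collagen, was lower on every FGSC array, at 4.95, 5.08 and 5.01 in FGSC against 5.58, 5.70 and 5.48 in SSC (difference -0.58 ± 0.09, adjusted p = 0.00125). Mmp28 was undetected in FGSC and at least 1.03-fold lower (means 4.68 in FGSC and 4.92 in SSC, adjusted p = 0.0255), a call that was lost without FGSC replicate 1, SSC replicate 1 or SSC replicate 2, with differences from -0.24 to -0.22.

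Mmp13, collagenase 3, had 5.75, 5.87 and 5.65 in FGSC, against 4.77, 4.75 and 4.72 in SSC, where no array detected it. It was at least 1.91-fold higher in FGSC (means 5.76 and 4.75, adjusted p = 7.31e-05), and its second kept probe differed by 0.19 and was not called. Mmp1a, a mouse interstitial collagenase gene, had 5.43, 5.77 and 5.87 in FGSC, against 5.09, 5.38 and 5.28 in SSC. Its groups were separated by a narrow gap, and the difference of 0.44 ± 0.14 (adjusted p = 0.0333) lost its call without FGSC replicate 2 (0.40), FGSC replicate 3 (0.35), SSC replicate 1 (0.36) or SSC replicate 3 (0.45). Mmp2, the gelatinase that Mmp14 activates, was not called, with 7.02, 7.33 and 7.04 in FGSC and 6.96, 7.10 and 6.70 in SSC (difference 0.21 ± 0.14). Mmp24, another membrane-bound enzyme, was not called at 6.00, 6.31 and 6.22 in FGSC and 6.14, 6.00 and 6.03 in SSC (difference 0.12 ± 0.10). Mmp17 and Mmp16 differed by 0.23 and -0.12 and were not called.

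Of the 3 tested Timp genes 2 fell and 1 was not called (median -1.24). Timp2, which inhibits metalloproteinases and also takes part in the activation of Mmp2 by Mmp14, had 6.50, 6.51 and 6.44 in FGSC, against 8.48, 8.44 and 8.41 in SSC. The spread within each group was under 0.1 log2 units, and Timp2 fell by 1.96 ± 0.07 (adjusted p = 2.39e-06). Timp3, the inhibitor that binds to the matrix, had 6.57, 6.42 and 6.46 in FGSC, against 7.03, 7.72 and 8.41 in SSC. All FGSC arrays lay below all SSC arrays, but the SSC arrays were far apart. The difference was -1.24 ± 0.32 (adjusted p = 0.0145), and -0.89 without SSC replicate 3, still called. Timp1, a secreted inhibitor encoded on the X chromosome, was not called at 6.91, 7.00 and 7.46 in FGSC and 7.23, 7.42 and 7.16 in SSC (difference -0.15 ± 0.16). It was called without FGSC replicate 3 (-0.32), and its second probe was called lower, with a difference of -0.51.

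Genes that process collagen after synthesis were mostly lower in FGSC: of 29 listed, 18 were tested, 2 rose and 12 fell (median -0.81). Tgm2, a transglutaminase that cross-links matrix proteins, fell by 3.28 ± 0.12 (adjusted p = 2.09e-06). Plod2, a lysyl hydroxylase of collagen cross-links, fell by 2.39 ± 0.08, and Colgalt1, which adds galactose to collagen, fell by 1.99 ± 0.14. P4hb, the beta subunit of prolyl 4-hydroxylase, differed by 1.53 ± 0.40 and was called higher, from a probe whose signal and detection p were out of order on 1 array. The other gene of this list that rose was also read from such a probe. Crtap, a partner of prolyl 3-hydroxylase, was not called (-0.28 ± 0.14).

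Cell surface receptors for the matrix gave 3 rises and 13 falls among 21 tested of 28 listed (median -0.55). Of the 21, 3 were undetected in FGSC, where the filter fixes the direction. Among the 11 detected on all 6 arrays, 2 rose and 4 fell. The largest differences were those of the syndecans Sdc4 (-2.92 ± 0.12) and Sdc2 (-2.19 ± 0.08), which are heparan sulfate proteoglycans, and of the integrins Itgb5 (-2.03 ± 0.16) and Itga11 (-2.02 ± 0.13). The 3 rises were those of Sdc1 (1.60 ± 0.11), Cd44 (1.37 ± 0.12) and Itga5 (0.35 ± 0.12). The syndecans were thus divided, and Sdc3 was not called (-0.44 ± 0.18). Itga11 encodes a subunit of a collagen receptor. Ilk, a kinase at integrin contacts, was not called (-0.02 ± 0.15).

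Elastic fibre, proteoglycan and matricellular genes gave 1 rise and 18 falls among 25 tested of 40 listed (median -1.09). Of the 25, 6 were undetected in FGSC, where the filter fixes the direction. Among the 13 detected on all 6 arrays, 1 rose and 8 fell. Gpc3, a cell surface glypican, fell by 4.65 ± 0.09, and Ltbp4, a binder of latent TGF-beta, by 4.52 ± 0.10. Mfap4, an elastic fibre protein, fell by 3.71 ± 0.09, and Eln, elastin, was undetected in FGSC and at least 8.54-fold lower (means 4.80 in FGSC and 7.97 in SSC, adjusted p = 7.19e-07). Ltbp3 was not called (-0.46 ± 0.25).

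Other proteases and inhibitors of the matrix gave 2 rises and 10 falls among 16 tested of 26 listed (median -0.59). Of the 16, 5 were undetected in FGSC, where the filter fixes the direction. Among the 10 detected on all 6 arrays, 2 rose and 5 fell. Htra3, a secreted serine protease, was undetected in FGSC and at least 27.9-fold lower (means 4.76 in FGSC and 9.67 in SSC, adjusted p = 4.70e-07). Ctsk, the collagen-cutting cathepsin of bone resorption, was also undetected in FGSC and at least 2.50-fold lower (means 4.76 and 6.19, adjusted p = 4.60e-05). Plat, the tissue plasminogen activator, rose by 2.13 ± 0.19 (adjusted p = 1.07e-04), and Adam12, a membrane-anchored protease, rose by 1.22 ± 0.07 (adjusted p = 1.81e-05). Adam17 was not called (0.05 ± 0.57).

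Markers of fibroblasts and of peritubular cells were mostly lower in FGSC, while the counts for Sertoli and Leydig markers were limited by detection. Summed signals (normalized signals on the linear scale) of the tested fibroblast and stroma markers were 197.3 to 201.2 in FGSC and 1377 to 1597 in SSC, with 6 of 6 lower in FGSC. Of these markers, Dcn and Mfap4 also belong to the list of elastic fibre, proteoglycan and matricellular genes above, so those 2 lists are not independent. For peritubular and smooth muscle markers the sums were 376.3 to 414.2 in FGSC and 2922 to 3111 in SSC, with 6 of 7 lower. The gap between these sums rested mainly on Mylk, which differed by -4.95 ± 0.08 (means 6.27 in FGSC and 11.22 in SSC). The median difference of the 7 was -0.49, and Acta2 was not called (0.08 ± 0.29). Sertoli markers summed to 282.2 to 367.3 in FGSC and 866.8 to 931.8 in SSC, with 5 of 8 lower and 2 higher. Amh, Dhh, Fshr and Gata4 were undetected in FGSC, so the filter fixed their direction. The largest part of the gap between these sums came from Amh (means 4.73 in FGSC and 8.52 in SSC). Sox9 (0.52 ± 0.18) and Rhox5 (0.24 ± 0.08) were called higher. The Sox9 probe had signal and detection p out of order on 1 array. Of the 4 Sertoli markers detected on all 6 arrays, 2 were higher and 1 lower. All 4 tested Leydig and theca markers were undetected in FGSC, where their sums were 105.7 to 108.7, against 301.7 to 352.5 in SSC, and 3 of 4 were called lower. These 4 passed the detection filter through SSC alone, which fixed their direction, so the calls are not a result about direction. Their FGSC sums lie at the detection limit. The part of these cells in the matrix differences was not tested.

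The spread among the SSC arrays was wide for some of these markers. Dcn, decorin, had 6.27, 7.44 and 8.29 in SSC, and Pdgfra, a receptor of mesenchymal cells, had 7.04, 8.07 and 8.22. Of the 6 tested fibroblast and stroma markers, Dcn, Pdgfra and Dpt were lowest in SSC replicate 1 and highest in replicate 3, while Mfap4 and Tcf21 had the reverse order. Of the 58 matrix genes, 13 had the first order, among them Col1a1, Col16a1 and Timp3, 13 had the reverse, among them Sparc, Nid2 and Col4a3, and 32 had neither. The part of these markers in the spread of the matrix genes was not tested.

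Markers of the ovarian surface epithelium were mostly higher in FGSC, while granulosa markers were divided. Surface epithelium markers summed to 250.3 to 293.6 in FGSC and 166.1 to 172.6 in SSC, with 4 of 5 higher, among them Upk3b (1.60 ± 0.12) and Krt19 (0.64 ± 0.17). The largest part of the gap between these sums came from Upk3b (means 6.41 in FGSC and 4.81 in SSC). The median difference of the 5 was 0.35, and Krt18 was not called (0.24 ± 0.14). Upk3b, Krt19 and Krt7 were each detected on 1 SSC array. Granulosa markers summed to 405.2 to 449.1 in FGSC and 294.6 to 320.1 in SSC, with 2 of 6 higher and 1 lower, and Foxl2 had no kept probe. Over all genes tested 30.9% rose and 31.5% fell. The higher granulosa sum in FGSC rested on Irx3, which differed by 2.17 ± 0.07 (means 7.43 in FGSC and 5.26 in SSC). The median difference of the 6 was -0.03. Endothelial markers summed to 389.2 to 405.3 in FGSC and 499.4 to 506 in SSC, with 1 of 10 higher and 5 lower. Of these 10, 4 were undetected in FGSC, and of the 3 detected on all 6 arrays 1 was higher and 1 lower. Macrophage markers summed to 96.64 to 103.2 in FGSC and 103.8 to 111 in SSC, with 1 of 3 lower. The part of these cells in the higher Lamb3, Col17a1 and Tnc signals was not tested.

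Markers of germ cells, spermatogonial stem cells and oocytes were also read. No list of FGSC markers was used, so the FGSC label itself was not tested. Ddx4, a germ cell RNA helicase, was detected on all arrays, at 8.40, 8.30 and 8.31 in FGSC and 8.73, 8.96 and 8.96 in SSC, and was called lower in FGSC (-0.55 ± 0.09, adjusted p = 0.00211). Of the other tested germ cell markers, Dnd1 was called lower (-2.72 ± 0.12), Dppa3 was called higher (8.18 ± 0.11) and Dazl was not called (-0.54 ± 0.25). Mael and Sycp3 had no kept probe. The markers of spermatogonial stem cells were lower in FGSC in 4 of 5 tested, among them Ret (-4.86 ± 0.09), while Gfra1 had no kept probe. All 6 oocyte markers were higher in FGSC, among them Figla (4.87 ± 0.11), Gdf9 (3.22 ± 0.16) and Zp3 (3.30 ± 0.20). Sohlh1, also on that list, was detected on every SSC array as well (means 13.28 in FGSC and 11.22 in SSC).

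**Figure D5:**
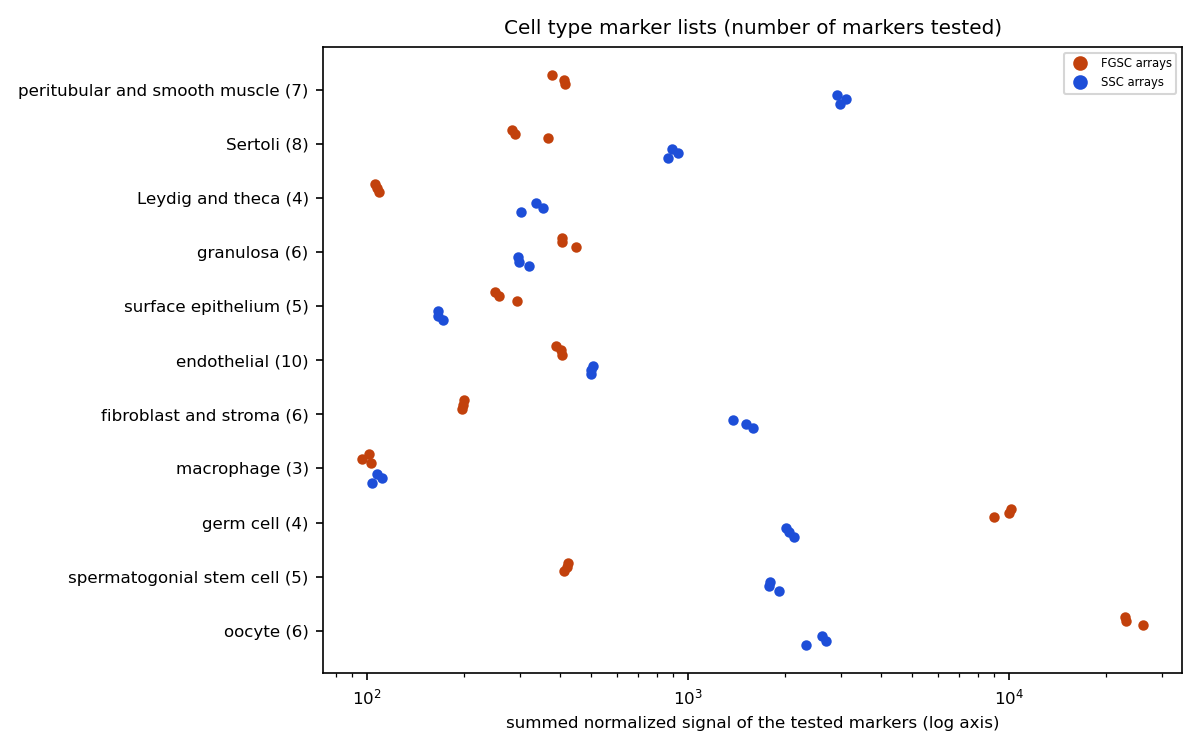
Summed normalized signal (x axis, log scale) of the tested markers of each cell type on the 3 FGSC and 3 SSC arrays, with the number of markers tested in brackets. Fibroblast, peritubular, Sertoli and Leydig sums are lower on every FGSC array, and oocyte and surface epithelium sums are higher on every FGSC array.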

How the data were processed

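RNA from 3 FGSC and 3 SSC samples was measured on 6 arrays, 1 per sample, grouped by sample title. For each probe the authors deposited a mean signal intensity with a detection p-value, not normalized between arrays per the file headers, and a second table of processed intensity whose scale and centring are not stated and which served as an alternative. The submitters' processing notes name lumi with no version or role; other steps are not given in the sources used here. No column of other samples was present (0).

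Signals were background-corrected from the detection p-values, given an offset of 16, quantile-normalized and turned into log2 values (neqc, limma 3.58.1, R 4.3.3). Kept probes had a detection p under 0.05 on at least 3 of 6 arrays and 1 gene symbol in the platform annotation, updated through RefSeq (GRCm38.p6). Of all probes 34885 had 1 symbol, 18 several and 10378 none here, and 82 kept probes belonged to members. FGSC and SSC were compared by lmFit and eBayes with no covariate. A fold for a probe undetected in 1 group takes, on each dim array, the higher of the lowest detected signal and its own value. Other probes of a gene were called by the same fit over all kept probes. The fit was tested on simulated data.

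Members were grouped in 8 families. Array values are given for up to 6 called members of a family with the largest difference and 2 uncalled with the highest level. For each list of related genes, up to 4 called genes and 1 uncalled gene are named. Outside that rule, the receptors that rose and Sdc3 are also named. Marker genes outside that rule were picked after their values were seen. They are those named as undetected or by array, Acta2, Mylk, Sox9, Rhox5, Irx3, Upk3b, Krt7, Krt18, Krt19, Ret, Figla, Gdf9, Zp3, Sohlh1 and the germ cell markers. The promoter windows shown were also picked after the values were seen. Members and lists were chosen with earlier results of these data known. Probe sequences and depth measures beyond detection were not used, and the number of arrays limits the precision. Alternatives covered offset, background, scaling, filter, probe choice, replicate block, weights and left-out arrays.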

Additional observations from a re-analysis of the deposited data

How the results depend on the processing

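Over 19 alternatives, 979 of 1053 results of single matrix genes kept their direction and side of the threshold, 12 stayed uncalled and changed sign, 39 lost the call, 20 gained it and 3 reversed. The reversals were those of Dag1, which differed by 1.30 at a detection p under 0.01 on all 6 arrays, and of Fbln1 (0.32) and Hspg2 (1.03) with the mean of the kept probes; each follows from reading other probes of the gene. Of the 42 called members, 34 stayed called in the same direction in every alternative in which they were tested, 6 higher and 28 lower; the exceptions were Bgn, Col4a1, Col6a1, Col7a1, Dag1, Lama2, Mmp1a and Mmp28. Scaling the arrays to a common median in place of quantiles gave 6 members higher and 30 lower, gave a median over all genes of -0.12 and left 39.1% of all calls higher, against 49.5%; the cause was not tested. With a detection p under 0.01 on all 6 arrays 6896 genes were tested and 4391 called, 56% of them higher, and of 30 members 8 were higher and 13 lower, with fewer genes tested. With a detection p under 0.05 on all 6 arrays, an alternative chosen after seeing the data, 6 of 37 members were higher and 20 lower. Leaving out 1 array at a time gave 5777 to 7000 genes called, 7 to 10 members higher and 29 to 34 lower, and leaving out both arrays numbered 3, also chosen after seeing the data, gave 9 higher and 34 lower. With replicate number as a block, 5926 genes were called, with 10 members higher and 29 lower. Deviations of arrays with the same number correlated at -0.20, -0.05 and -0.22, so the numbers were not taken to pair the samples. No slide or scan information was given, so no fit with slide as a block was run. Of 58 members 11 lay below detection throughout a group, where the size of a difference is only a bound.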
